A study of Homo sapiens with 2 samples.

Results

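The nuclear receptors are a superfamily of transcription factors, and 46 of their genes, fixed as a list of symbols, were followed among the 62700 genes of the gene table. All 46 were found by symbol, and the rule names genes and uses no measured value. The list itself was chosen with earlier results of these data known. The RNA came from 2 libraries of TCam-2, a seminoma-type testicular cancer cell line of human origin that is widely established. Both carried the genotype DDX53 overexpression, from transduction with DDX53 fused to a FLAG tag (DDX53 is a DEAD-box RNA helicase gene), and no other treatment or time point is named in the labels. The 2 libraries of the series include none of the study's negative controls, which were cells with GFP-FLAG and cells without transduction. No value below is therefore an effect of DDX53, and the comparisons are between genes and between the libraries, called replicate 1 and replicate 2. The labels do not say whether the replicates were separate cultures, so the spread between them may be technical.

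Depth was 24137664 reads in genes for replicate 1 and 22198929 for replicate 2. DDX53 had 146 and 147 reads, which is 6.05 and 6.62 CPM (reads scaled to the depth of the library). Of the markers of seminoma, 8 of 8 were detected, against 3 of 5 for embryonal carcinoma, 1 of 5 for Leydig cells, 3 of 5 for Sertoli cells, 4 of 6 for fibroblasts and 0 of 4 for leukocytes. By the same rule, 1 CPM in both libraries, 61.7% of protein-coding genes were detected. The marker lists were also chosen with earlier results of these data known. Whether a marker is particular to its list was not tested. Of the embryonal carcinoma markers, TDGF1 had 127 and 120 CPM and LEFTY1 had 3 and 2 reads. SOX2, at 0.994 and 1.08 CPM, missed the threshold in replicate 1. The fibroblast count included COL1A2 at 455 and 424 CPM, while DCN, another fibroblast marker, had 1 read in each library. The part of other cell types in the levels below was not tested, and in bulk RNA fewer cells of a type and less RNA per cell cannot be told apart.

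Most nuclear receptors have a zinc finger domain that binds DNA, and most have a domain that binds a small lipophilic ligand. Retinoids, thyroid hormone, steroids, fatty acids and oxysterols are such ligands, and members without a known natural ligand are called orphan receptors. Many of them bind DNA as a heterodimer with a retinoid X receptor, and the bound receptor exchanges corepressors for coactivators. In the germ line, retinoic acid receptors are known for the entry into meiosis. The orphan receptor NR6A1 is known for repression of pluripotency genes during differentiation.

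Promoter windows of 250 bases before the RefSeq start (GRCh38.p14, first start listed for the gene) were available for 41 of the 46 genes. VDR, HNF4G, NR2F6, NR4A2 and NR0B2 had no entry. Whether the listed start is the one used in these cells was not tested, and 24 of the genes had several entries. RXRA and RXRG, paralogs that encode retinoid X receptors, and NR1I2, which encodes the pregnane X receptor, are shown first because they differ widely in CpG content and in detection. RXRA was detected, and the other two had no read. Capitals mark CG dinucleotides. The RXRA window (chr9:134326205-134326454, plus strand) held 59, the RXRG window (chr1:165445127-165445376, minus strand) 24 and the NR1I2 window (chr3:119781851-119782100, plus strand) 4.
RXRA: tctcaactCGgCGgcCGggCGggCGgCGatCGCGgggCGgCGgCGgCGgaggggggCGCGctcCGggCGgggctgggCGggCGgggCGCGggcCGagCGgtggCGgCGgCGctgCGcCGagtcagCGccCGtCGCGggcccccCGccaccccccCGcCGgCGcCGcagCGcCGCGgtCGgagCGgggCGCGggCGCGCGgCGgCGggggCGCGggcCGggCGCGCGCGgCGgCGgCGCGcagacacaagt
RXRG: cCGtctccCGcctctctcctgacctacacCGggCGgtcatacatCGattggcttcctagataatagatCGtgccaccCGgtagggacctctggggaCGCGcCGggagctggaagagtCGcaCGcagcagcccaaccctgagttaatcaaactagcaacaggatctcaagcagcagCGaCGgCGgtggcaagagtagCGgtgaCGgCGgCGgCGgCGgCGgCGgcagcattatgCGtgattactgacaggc
NR1I2: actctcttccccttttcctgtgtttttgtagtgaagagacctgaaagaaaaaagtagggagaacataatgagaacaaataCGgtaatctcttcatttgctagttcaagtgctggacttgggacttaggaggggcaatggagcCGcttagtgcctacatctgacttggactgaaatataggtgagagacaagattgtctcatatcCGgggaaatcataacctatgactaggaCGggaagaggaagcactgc

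Detection required each library to reach 1 CPM. Detected receptor genes had a median of 17 CG dinucleotides in the window (range 1 to 59, 24 genes), and receptor genes not detected had a median of 9 (range 0 to 24, 17 genes). Over all protein-coding genes with a window, the medians were 21 for 9950 detected genes and 5 for 5350 genes not detected. A CpG content of at least 0.6 of that expected from the base composition was found in 17 of 24 detected receptor genes (70.8%) and in 6 of 17 not detected (35.3%). For protein-coding genes the shares were 82.1% and 30.9%. Exceptions ran both ways. NR1H3 and NR4A1 were detected with 2 and 4 CG dinucleotides, and RXRG, RORB and ESR2 had no read in either library with 24, 23 and 23.

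**Figure D1:**
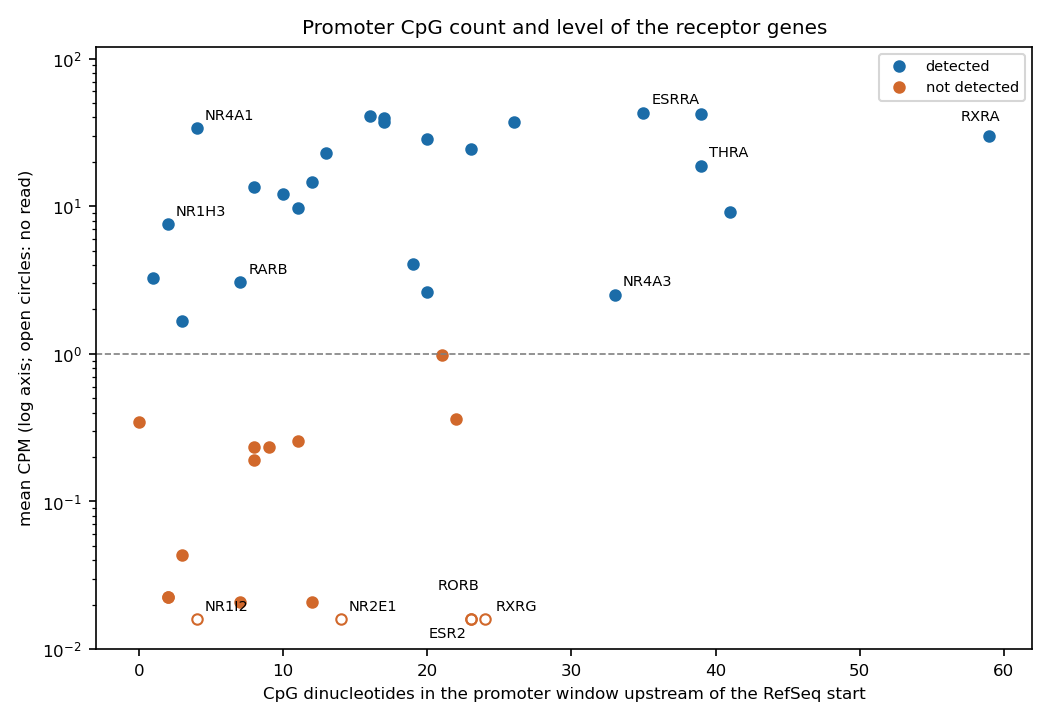
Each point is 1 of 41 receptor genes, by the CG dinucleotides in the 250 bases before its RefSeq start (x axis) and its mean CPM over 2 libraries (y axis, log scale). Detected genes (blue) span 1 to 59 CG dinucleotides and undetected genes (orange) 0 to 24, and open circles mark genes with no read.

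Motifs were then searched in the same windows, by exact letters on both strands, among 15300 protein-coding genes. A match describes the letters and is not a binding site. RARB, the gene of retinoic acid receptor beta, is shown because its window (chr3:25428013-25428262, plus strand) was the 1 window of the 15300 in which GGTTCA was followed, 5 bases later, by AGTTCA, a direct repeat known as a retinoic acid response element. The letters searched were those of the element known from RARB itself, and were set to that form in the course of the work, so the match in RARB followed from the choice of letters and is no finding. It lay from -53 to -37 relative to the start and is in capitals. NR4A3, an early response gene, is shown because its window (chr9:99821635-99821884, plus strand) held 3 copies of TGACGT, the half-site of the cyclic AMP response element, in capitals. They began at -109, -83 and -25.
RARB: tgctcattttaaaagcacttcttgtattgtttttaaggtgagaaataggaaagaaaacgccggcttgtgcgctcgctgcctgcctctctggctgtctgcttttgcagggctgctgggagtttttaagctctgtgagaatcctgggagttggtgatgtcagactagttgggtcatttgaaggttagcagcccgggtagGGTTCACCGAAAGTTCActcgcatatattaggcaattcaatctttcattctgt
NR4A3: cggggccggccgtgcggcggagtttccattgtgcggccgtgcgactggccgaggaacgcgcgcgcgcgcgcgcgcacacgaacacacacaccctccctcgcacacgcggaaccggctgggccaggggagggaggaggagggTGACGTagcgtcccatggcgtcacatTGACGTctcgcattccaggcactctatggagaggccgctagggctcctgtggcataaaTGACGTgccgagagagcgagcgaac

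The TGACGT half-site was found in 5 of the 41 receptor windows (PPARD, NR2C1, NR2E1, NR4A3 and NR6A1), against 8.79% of all protein-coding windows. The full element TGACGTCA, which contains the half-site on each strand, was found in NR2E1 and NR6A1 (2.37% of all). The receptor half-site AGGTCA stood in 7 receptor windows (10.1% of all): RARA, RXRG, PPARG, NR1H3, NR1H4, NR5A2 and NR0B1. The E-box CACGTG, bound by clock factors, stood in NR2C1, NR2F2 and NR5A1 (7.84% of all). GC boxes (GGGCGG) were found in 22 windows (56.7% of all), and TATAAA in ESRRB, NR5A2 and NR0B1 (9.20% of all).

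Of the 46 receptor genes, 25 were detected (54.3%), beside 21.7% of all 62700 genes and 61.7% of 19831 protein-coding genes. The share was thus below that of protein-coding genes, and no test was made. Detected receptor genes ranged from 1.66 CPM (ESRRB) to 134 CPM (NR2F6) in the mean of the libraries, with a median of 18.9 CPM. The median of all detected genes was 24.4 CPM. Among the 21 genes not detected, 6 had no read in either library, and 12, these 6 included, had at most 1 read in each. A count of 0 allows up to 3 reads, or 0.124 CPM in replicate 1 and 0.135 CPM in replicate 2. This limit and the 95% Wilson intervals below account for counting error alone, because the kit adds no molecular identifiers.

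**Figure D2:**
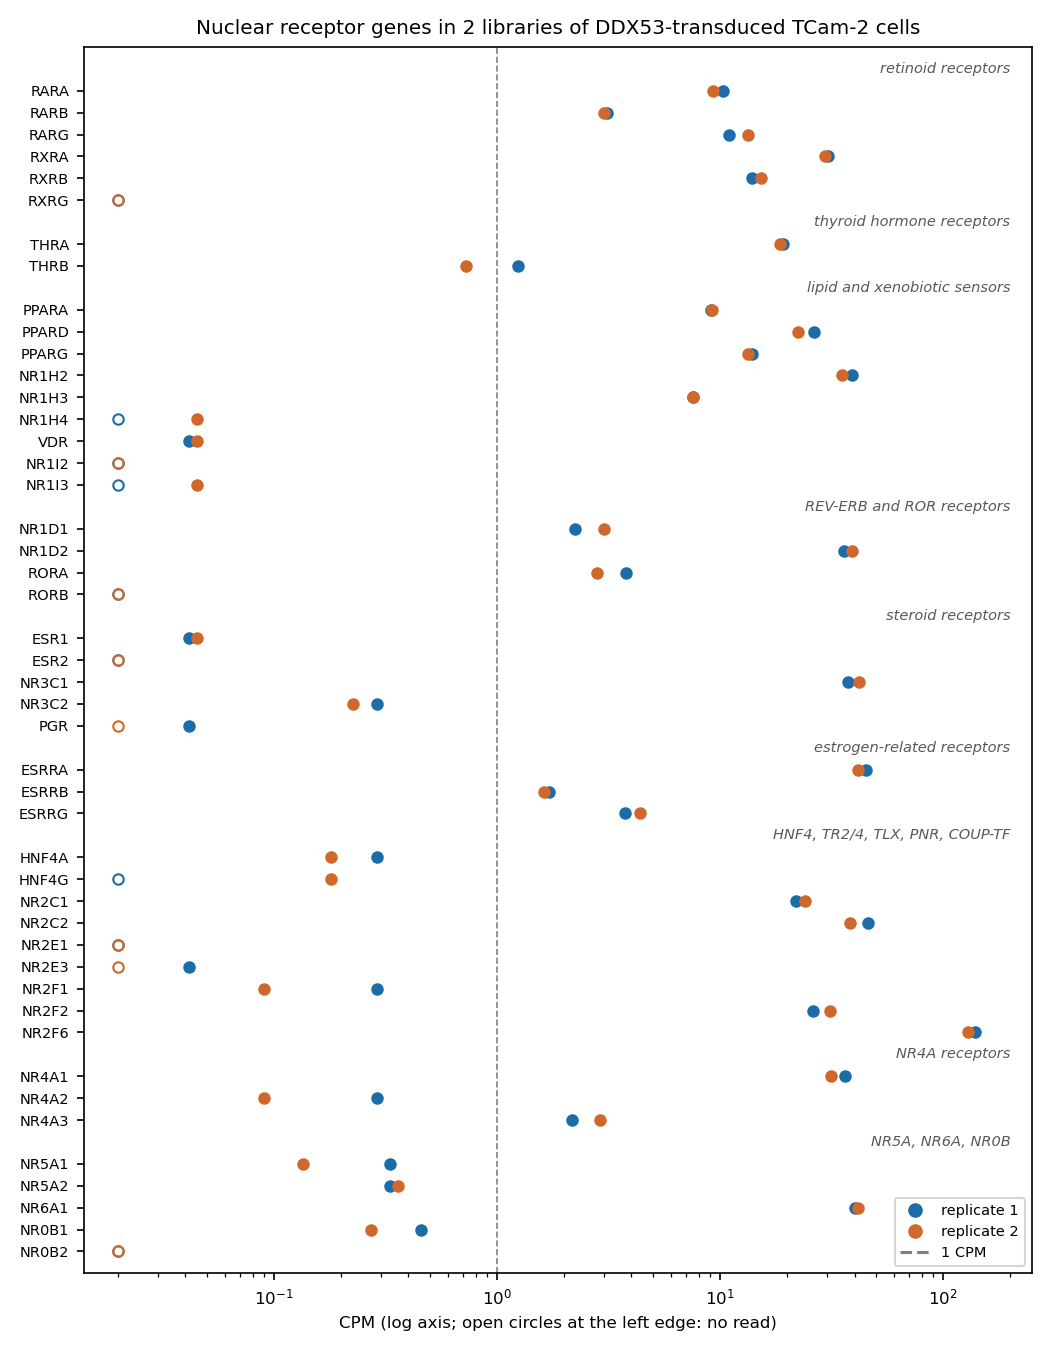
CPM (log axis) of the 46 receptor genes in replicate 1 (blue) and replicate 2 (orange), grouped by role, with open circles at the left edge for libraries with no read. The dashed line is the detection threshold of 1 CPM; 25 genes lie above it in both libraries, NR2F6 is highest, and THRB lies on either side of it.

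Among the retinoid receptors, 5 of 6 genes were detected. RARA, the retinoic acid receptor gene that is broadly expressed, had 249 and 206 reads in replicates 1 and 2, which is 10.3 CPM (9.11 to 11.7, the 95% Wilson interval) and 9.28 CPM (8.10 to 10.6). RARG, its paralog, had 265 and 296 reads, or 10.98 CPM (9.73 to 12.4) and 13.3 CPM (11.9 to 14.9). The intervals overlapped between the libraries for each gene. RARB, which retinoic acid is known to induce, was lower, with 75 and 67 reads, or 3.11 and 3.02 CPM. RXRA had 737 and 653 reads, or 30.5 and 29.4 CPM, and RXRB had 336 and 339 reads, or 13.9 and 15.3 CPM. RXRG, the third retinoid X receptor gene, was the member of this group with no read.

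On a scale per length, the retinoid receptors stood in another order. TPM divide the reads by transcript length, and RXRA then had 7.29 and 7.19 TPM and RXRB 7.17 and 7.70 TPM. The ratio of RXRA to RXRB was 0.976 ± 0.0599 in TPM and 0.729 ± 0.0668 in reads divided by exon length (SD, n = 2). RXRA was thus the lower of the pair in both libraries on the second scale only. RARA exceeded RARB by 6.43 ± 0.180 times in TPM (SD, n = 2), but by 2.50 ± 0.136 times in reads divided by exon length. The sizes of these ratios depended on the table.

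Of the thyroid hormone receptor genes, THRA was detected and THRB was not. THRA (chromosome 17, 40058290 to 40093867, plus strand) had 463 and 412 reads, or 19.2 and 18.6 CPM. THRB had 30 and 16 reads, or 1.24 CPM (0.871 to 1.77) and 0.721 CPM (0.444 to 1.17), and its intervals overlapped. It was the 1 receptor gene above the threshold in a single library.

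The lipid sensors were detected and the bile acid, vitamin D and xenobiotic sensors were not. PPARD, a fatty acid receptor gene, had 636 and 494 reads, or 26.3 CPM (24.4 to 28.5) and 22.3 CPM (20.4 to 24.3), with intervals that did not overlap. PPARG, the adipogenic paralog, had 334 and 296 reads (13.8 and 13.3 CPM), and PPARA, known for fatty acid oxidation in liver, had 220 and 203 (9.11 and 9.14 CPM). The oxysterol receptor genes differed in level. NR1H2, which encodes the broadly expressed LXR beta, had 939 and 778 reads (38.9 and 35.05 CPM), and NR1H3, for LXR alpha, had 183 and 167 (7.58 and 7.52 CPM). NR1H2 exceeded NR1H3 by 3.18 ± 0.463 times in TPM and by 5.91 ± 0.404 times in length-scaled reads (SD, n = 2). NR1H4, the bile acid receptor gene, NR1I3, the constitutive androstane receptor gene, and VDR, the vitamin D receptor gene, had at most 1 read in each library, and NR1I2 had none.

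Receptors of the circadian clock were led by NR1D2. It encodes REV-ERB beta, a repressor of clock genes, and had 869 and 867 reads, or 36.0 and 39.1 CPM. NR1D1, for its paralog REV-ERB alpha, had 54 and 67 reads, or 2.24 CPM (1.71 to 2.92) and 3.02 CPM (2.38 to 3.83). NR1D2 was higher by 8.33 ± 1.29 times in TPM and 6.91 ± 1.06 times in length-scaled reads (SD, n = 2). RORA, an activator that competes with REV-ERB receptors for their sites, had 91 and 62 reads (3.77 and 2.79 CPM), and RORB had none.

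NR3C1, the glucocorticoid receptor gene, was the 1 detected gene of the 5 steroid receptors on the list. It had 902 reads in replicate 1, or 37.4 CPM (35.01 to 39.9), and 933 in replicate 2, or 42.0 CPM (39.4 to 44.8). NR3C2, the mineralocorticoid receptor gene, had 7 and 5 reads, which is 0.290 and 0.225 CPM. The estrogen receptor gene ESR1 had 1 read in each library, PGR, the progesterone receptor gene, had 1 and 0, and ESR2 had 0 in both.

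All 3 estrogen-related receptor genes were detected, at levels far apart. ESRRA, known for mitochondrial gene expression, had 1085 and 916 reads, or 45.0 and 41.3 CPM. ESRRG had 90 and 97 reads (3.73 and 4.37 CPM), and ESRRB, a pluripotency factor in mouse embryonic stem cells, had 41 and 36 (1.70 and 1.62 CPM). ESRRA exceeded ESRRG by 26.3 ± 4.75 times and ESRRB by 61.2 ± 19.7 times in TPM (SD, n = 2). In reads divided by exon length these ratios were 38.7 ± 6.65 and 50.8 ± 1.41 (SD, n = 2), and the order of the 3 genes was the same.

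The highest receptor gene belonged to the COUP-TF group of orphan receptors. NR2F6 (chromosome 19, 17231883 to 17245940, minus strand), also known as EAR2, had 3343 and 2861 reads, or 138 CPM (134 to 143) and 129 CPM (124 to 134). NR2F2 (chromosome 15, 96325938 to 96340263, plus strand), known for mesenchymal and vascular development, had 628 and 687 reads, or 26.0 CPM (24.1 to 28.1) and 30.9 CPM (28.7 to 33.3). Its intervals did not overlap between the libraries. NR2F1, the third of the group, had 7 and 2 reads (0.290 and 0.0901 CPM) and was not detected. Both testicular receptor genes, orphan members that bind direct repeats, were detected: NR2C1 had 528 and 532 reads (21.9 and 24.0 CPM), and NR2C2 had 1110 and 848 (45.99 and 38.2 CPM). HNF4A, a liver and gut regulator, had 7 and 4 reads and HNF4G had 0 and 4. NR2E3, a photoreceptor gene, had 1 and 0, and NR2E1, a neural stem cell gene, had 0 in both.

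Among the NR4A receptors, which are early response genes, NR4A1 had 872 and 694 reads, or 36.1 CPM (33.8 to 38.6) and 31.3 CPM (29.02 to 33.7). The intervals of NR4A1 did not overlap. NR4A3 had 52 and 64 reads (2.15 and 2.88 CPM), and NR4A2, which was not detected, had 7 and 2.

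NR6A1, the germ cell nuclear factor gene, had 972 and 916 reads, or 40.3 CPM (37.8 to 42.9) and 41.3 CPM (38.7 to 44.0). Its values lay close together, and it was the 1 detected gene of the NR5A, NR6A and NR0B receptors. NR5A1, the regulator of steroidogenic genes in the gonad and adrenal, had 8 and 3 reads. NR5A2, a pluripotency and liver factor, had 8 and 8, and NR0B1, for the repressor DAX1, had 11 and 6. NR0B2 had no read. The undetected genes with the most reads were thus THRB, NR0B1, NR5A2 and NR3C2, followed by HNF4A and NR5A1 with equal totals.

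Levels were compared between genes per length, in TPM summed over the transcripts of a gene. NR2F6 stood first at 167 ± 4.13 TPM (SD, n = 2), above 95.7% of protein-coding genes. It alone made up 44.1% and 43.4% of the TPM of all 46 receptor genes in replicates 1 and 2, and 37.7% and 36.5% of their length-scaled reads. ESRRA followed at 28.0 ± 2.22, NR1H2 at 26.3 ± 2.30 and NR4A1 at 25.3 ± 3.38 TPM (SD, n = 2 each). NR2F6 lay outside the range of ESRRA, while ESRRA, NR1H2 and NR4A1 overlapped their neighbours in the order. NR2C1 (19.0 ± 0.206 TPM), NR2F2 (14.04 ± 1.30) and NR1D2 (10.3 ± 0.280) each stood apart from the next gene (SD, n = 2 each). From PPARD (8.35 ± 0.876 TPM) through NR1H3, PPARG, NR3C1, NR6A1, NR2C2, RXRB, RXRA and RARG to THRA (5.88 ± 0.0142), most neighbours overlapped. At the low end were RORA (2.57 ± 0.0400 TPM), NR1D1 (1.26 ± 0.228), ESRRG (1.07 ± 0.109), RARB (0.836 ± 0.0605), NR4A3 (0.712 ± 0.166) and ESRRB (0.476 ± 0.117). Of the 24 pairs of neighbours among detected genes, 12 overlapped in range and 12 did not.

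A level of 10 TPM was reached in both libraries by 7 receptor genes, and by 36.7% of protein-coding genes. With reads divided by exon length and scaled to the same total as TPM, 15 receptor genes reached 10. NR2F6, ESRRA and NR1H2 held ranks 1, 2 and 3 on both scales. NR2C1 moved from rank 5 in TPM to 12 in length-scaled reads, NR6A1 from 12 to 5, and RORA from 20 to 25. The ratio of NR2F6 to ESRRA was 5.99 ± 0.327 in TPM and 3.51 ± 0.0338 in length-scaled reads, and that of NR2F6 to NR2F2 was 12.0 ± 1.40 and 11.5 ± 1.98 (SD, n = 2 each).

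Retinoid X receptors are the shared partners of many other members. Of 14 genes on the list that encode such partners, 9 were detected. Their summed level was 4.93 and 5.06 times that of the 3 retinoid X receptor genes in TPM, in replicates 1 and 2, and 4.71 and 4.24 times in length-scaled reads. Summed partner transcripts thus exceeded summed retinoid X receptor transcripts on both scales and in both libraries. The sums cover 14 genes against 3, so the ratios reflect the number of genes too and give no level per gene. RXRA had 3.38 and 3.30 times the reads that its TPM predict, in replicates 1 and 2. The part of this in the TPM ratios was not tested.

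The transcript table showed which isoforms carried these levels. It was read for the 20 receptor genes that had several annotated transcripts and a summed TPM of 1 or more in each library. Codon and base lengths are those of GENCODE 29, and 13 of the 20 leading transcripts were deposited in another version than GENCODE 29 holds, so their lengths may differ. Shares are taken over the transcripts that matched GENCODE 29, 201667 of 251955, and leave out any isoform without a match. Among matched transcripts, 1 held over 90% of the TPM in both libraries in NR1D2, NR2F6, NR3C1, NR6A1, PPARD and RXRA. In NR3C1 this was NR3C1-203 (777 codons, 93.3% and 94.3%), and in NR6A1 it was NR6A1-205 (480 codons, 91.6% and 91.8%).

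THRA and NR1D1 lie on opposite strands, and their exons overlap by 263 bases, which is 3.78% of THRA exons and 9.49% of NR1D1 exons. THRA-203, of 410 codons, has no base in NR1D1 exons and held 66.1% and 63.6% of THRA's TPM. THRA-201, of 490 codons, runs into NR1D1 by all 263 bases and held 31.2% and 29.7%. THRA-209 (451 codons) held 2.74% and 6.73%. The transcript free of the overlap thus led in both libraries. The kit marks strand, but the strand setting of the authors' counting is not given in the sources used here, so reads of the shared bases may be assigned to either gene.

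NR2F2 was carried by a short isoform. NR2F2-203, of 281 codons, held 74.3% and 74.2% of its TPM, and NR2F2-201, of 414 codons, held 24.6% and 24.8%. The coding sequences share 266 codons. The shares of both isoforms hardly moved between the libraries, although the gene's reads did.

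In NR2C1 the leading transcript was not a coding one. NR2C1-212, a retained intron transcript of 683 bases, held 40.4% and 34.6%, and transcripts of non-coding types together held 59.8% and 60.01%. PPARA was led by the retained intron transcript PPARA-210 in replicate 1 (53.1%, and 30.3% in replicate 2) and by PPARA-205 in replicate 2 (33.4%, and 8.14% in replicate 1). PPARG was led by PPARG-207 in replicate 1 (45.0% and 25.8%) and by PPARG-202 in replicate 2 (37.0% and 45.7%), both of 477 codons. PPARG-201, the transcript of 505 codons, was listed at 0 TPM in replicate 1 and had 0.159 TPM in replicate 2. RXRB was the third gene whose leading transcript differed, with RXRB-201 at 47.8% and 42.5% and RXRB-202 at 31.4% and 42.5%. These 3 of 20 genes are 15.0%, beside 11.7% of 11774 genes over the whole table, a share near the background.

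The leading transcript held under 60% in at least 1 library in 10 genes. Besides NR2C1, PPARA, PPARG and RXRB, they were RARA (RARA-201, 43.0% and 36.4%), NR1H2 (NR1H2-204, 36.2% and 39.0%), NR1H3 (NR1H3-201, 48.0% and 41.9%), NR2C2 (NR2C2-213, 59.3% and 54.4%), NR4A1 (NR4A1-204, 43.4% and 35.9%) and RORA (RORA-208, 63.1% and 46.4%). RORA-208 is an annotated transcript of 492 bases with 38 codons, and in replicate 1 it held most of the gene's TPM. The depth per transcript is unknown, and no interval is given for these shares.

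**Figure D3:**
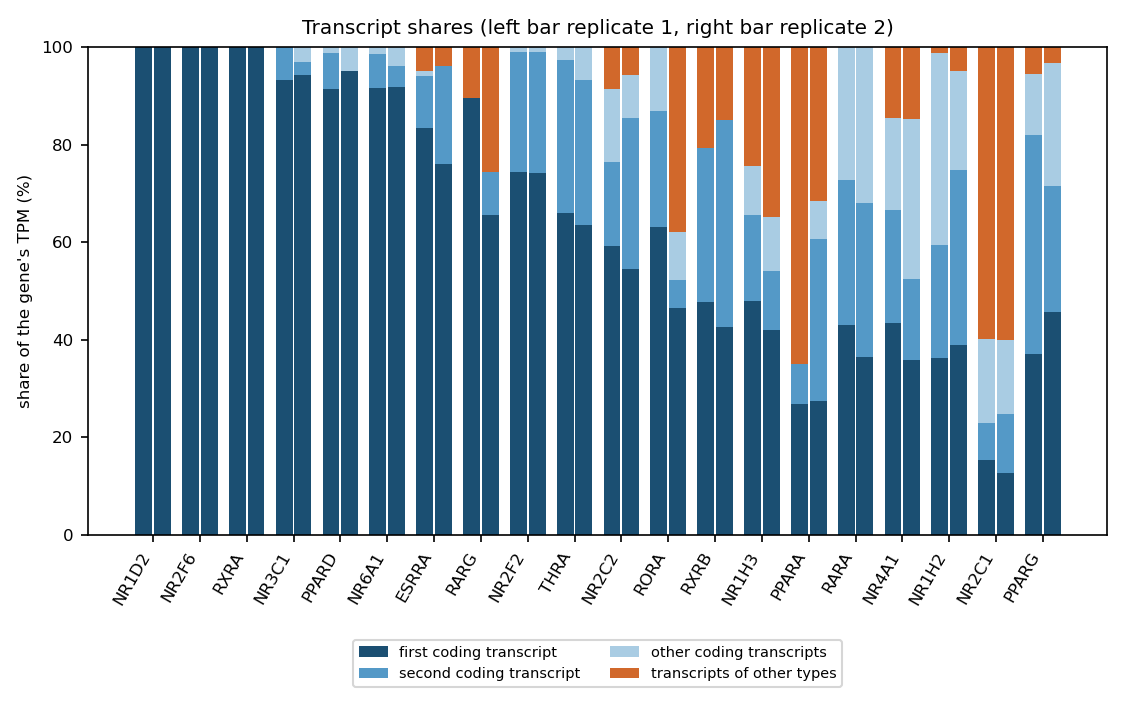
Share of each gene's TPM (percent) held by its first, second and other coding transcripts (blues) and by transcripts of other types (orange), with replicate 1 on the left and replicate 2 on the right of each pair. Shares repeat closely in NR2F2 (74.3% and 74.2% for the first transcript) and change in PPARA, where the non-coding share was 65.1% in replicate 1 and 31.5% in replicate 2.

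The gene and transcript tables were then set against each other. The reads that TPM and transcript length predict were compared with the reads counted for 21 receptor genes, and the median ratio was 1.103 in replicate 1 and 1.11 in replicate 2. No gene was over 4-fold apart in both libraries, and RXRA was the 1 gene over 2-fold apart in both, with 3.38 and 3.30 times the predicted reads. All of its matched TPM lay on RXRA-202, of 1846 bases in GENCODE 29. This transcript was deposited as version 2, where GENCODE 29 has version 1. NR2F6 had 0.505 and 0.484 times the predicted reads. NR2F6-201 was deposited as version 4 against version 3, and 221 bases of NR2F6 exons lie in exons of AC010646.1 on the same strand. The part of these properties in the ratios was not tested. PPARG had 2.23 times the predicted reads in replicate 1 and 1.098 times in replicate 2, beside summed TPM of 5.43 and 10.99.

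Genes that work with nuclear receptors were described from 8 lists of 99 genes in all, chosen with earlier results of these data known. Of these genes, 71 were detected (71.7%), beside 61.7% of protein-coding genes. All 14 coactivators were detected, led by NCOA4 (258 and 262 CPM), the histone arginine methyltransferase gene CARM1 (194 and 201 CPM) and NCOA2 (114 and 108 CPM). Of 10 corepressors, 9 were detected, led by the histone demethylase gene KDM1A (169 and 177 CPM), TBL1X (112 and 108 CPM) and SIN3A (106 and 103 CPM). The exception, GPS2, had 4 and 3 reads but summed TPM of 34.4 and 30.7, so its level is uncertain. The 7 chaperone genes that hold steroid receptors ready for ligand were detected, led by HSP90AA1 (2842 and 2920 CPM), HSP90AB1 (2605 and 2571 CPM) and FKBP4 (848 and 855 CPM).

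Genes that make or remove ligands were detected in part, at 50.0% for retinoid handling, 45.5% for steroid synthesis and 57.1% for thyroid hormone handling. The share of protein-coding genes was 61.7%. In retinoid handling, 7 of 14 genes were detected, with RDH11 (121 and 124 CPM), DHRS3 (47.5 and 56.5 CPM) and the retinaldehyde dehydrogenase gene ALDH1A3 (40.6 and 40.5 CPM) the highest. The retinoic acid hydroxylase genes CYP26A1, CYP26B1 and CYP26C1, named after their values were seen, had 3 and 7, 4 and 4, and 4 and 5 reads. In steroid synthesis 5 of 11 were detected, led by SRD5A1 (30.3 and 26.5 CPM), CYP11A1 (5.51 and 5.05 CPM) and the aromatase gene CYP19A1 (4.18 and 4.10 CPM), and CYP21A2, HSD3B2, CYP11B1 and HSD17B3 had no read. Thyroid hormone handling had 4 of 7, among them the transporter gene SLC16A10 (179 and 182 CPM) and the hormone-binding gene CRYM (38.4 and 42.2 CPM). DIO1 and THRSP had no read.

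The clock genes on the list were detected in 13 of 15 cases, led by CRY1 (40.1 and 46.2 CPM), CRY2 (41.6 and 41.1 CPM) and BHLHE40 (24.3 and 26.3 CPM). BHLHE41 had no read. Of 21 genes known as receptor targets in other tissues, 12 were detected (57.1%), beside 61.7% of protein-coding genes. ANGPTL4, a target of the PPAR receptors, stood highest at 444 and 414 CPM, before PLIN2 (98.4 and 102 CPM) and the LXR target SREBF1 (79.6 and 73.3 CPM). ABCB11, known from liver, had no read.

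**Figure D4:**
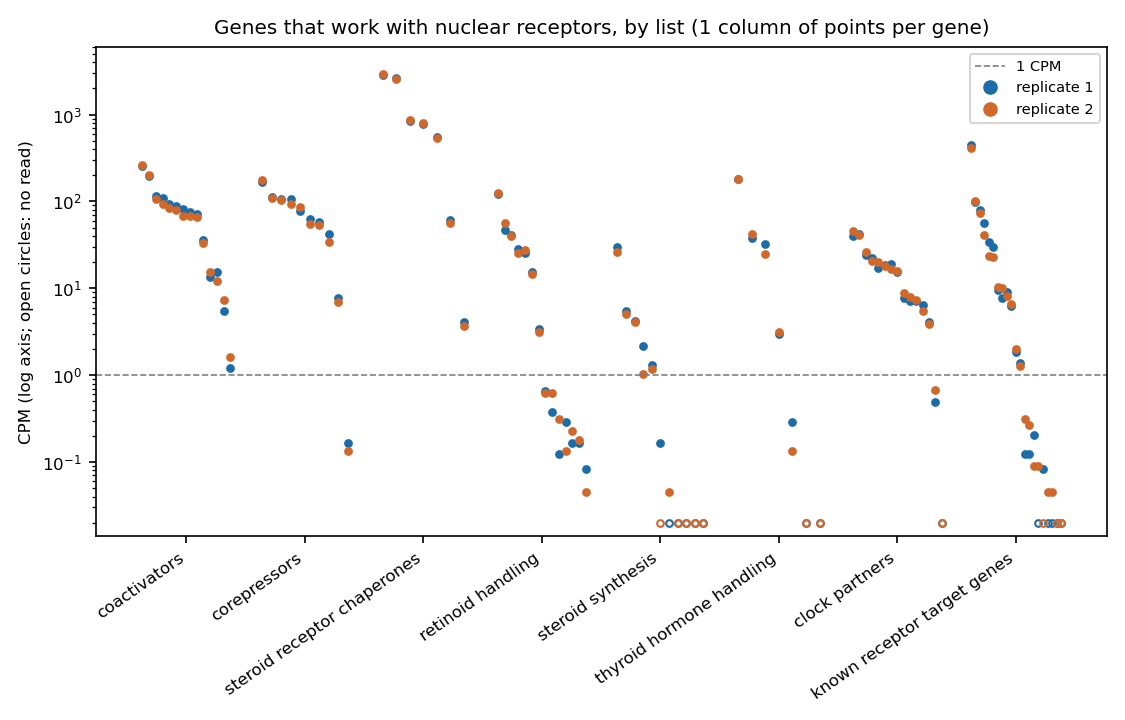
CPM (log axis) of 99 genes that work with nuclear receptors, 1 column of points per gene, in 8 lists ordered by level, with replicate 1 in blue and replicate 2 in orange. All coactivators and chaperones lie above the 1 CPM line, and open circles mark libraries without a read in the lists on ligand handling, the clock and targets.

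Differences between the libraries were measured last. A two-sided exact binomial test in edgeR, with p-values adjusted after Benjamini and Hochberg and a threshold of 0.05, set replicate 2 against replicate 1 over 15299 genes. It speaks of these libraries and not of a condition, and it takes each read as independent, so its p-values cover counting error only. Of the 26 receptor genes tested it called 4 (15.4%), beside 13.1% of all genes tested, a share near the background. Of the 4, 1 was higher and 3 were lower in replicate 2, where 6.49% of all genes tested were called higher and 6.65% lower. NR2C2 was lower in replicate 2, with a log2 difference of CPM + 1 of -0.26 (edgeR exact binomial test, adjusted p = 0.00125). PPARD was lower by the same test in edgeR, with -0.23 (adjusted p = 0.0477), and so was NR4A1, with -0.20 (adjusted p = 0.0458). With all genes that have a read in the test, PPARD (edgeR adjusted p = 0.0803) and NR4A1 (edgeR adjusted p = 0.0771) were no longer called. NR2F2 was higher in replicate 2, with 0.24 (edgeR exact binomial test, adjusted p = 0.0150). NR2F6 missed the threshold at -0.10 (edgeR adjusted p = 0.0545) and passed it with DESeq2 size factors (adjusted p = 0.0363) or total reads (adjusted p = 0.0397) as the scale. Of the NR2C2 exons, 1197 bases (10.1%) lie in exons of MRPS25 on the opposite strand. Of the NR4A1 exons, 754 bases (10.3%) lie in exons of AC025259.3, also on the opposite strand. The part of these overlaps in the differences was not tested.

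Over the 25 receptor genes whose mean reached 1 CPM, the median difference was -0.03, with 11 genes higher and 14 lower in replicate 2 and a range of -0.33 to 0.31. Over all such genes the median was -0.0077. The sign of the receptor median turned with summed TPM, where it was 0.014 over the receptor genes with a mean of 1 TPM or more. That set left out RARB, NR4A3 and ESRRB, so the scale and the set of genes both differed. Of the 73 genes tested from the lists of cooperating genes, 20 were called (27.4%), 5 higher and 15 lower in replicate 2, beside the 13.1% of all genes tested (6.49% higher and 6.65% lower). In the coactivators 6 of 14 were called (42.9%), all lower, beside 6.65% of all genes tested that were called lower. Among them were EP300 (edgeR adjusted p = 9.29e-07, log2 difference -0.28) and NCOA3 (edgeR adjusted p = 1.82e-05, -0.22), both named after their values were seen. In the corepressors 4 of 9 were called (44.4%), 3 of them lower, and among the clock genes 1 of 14 (7.14%). The share of all genes tested was not matched for read count, and the test calls smaller differences in genes with many reads. None of these differences has a replicate check, since each side is 1 library.

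**Figure D5:**
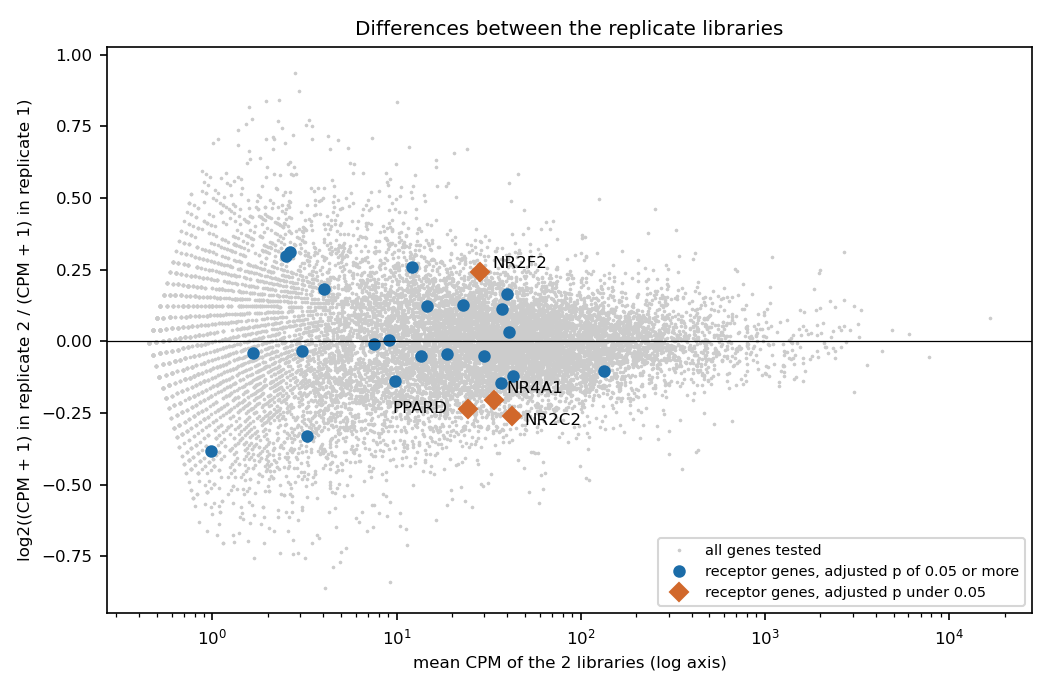
Log2 difference of CPM + 1, replicate 2 against replicate 1 (y axis), against mean CPM (x axis, log scale) for all genes tested (grey) and receptor genes (blue, or orange diamonds where the adjusted p was under 0.05). The 4 called receptor genes are labelled: NR2F2 lies above 0, and PPARD, NR4A1 and NR2C2 lie below it.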

How the data were processed

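Polyadenylated RNA of 2 libraries was made with a stranded kit, per the labels' protocols. The submitters' processing notes name Trim Galore 0.6.10, STAR 2.7.11a, DESeq2 and Salmon 1.10.2 with GRCh38, without roles; the annotation and the counting settings are not given in the sources used here. The authors deposited TPM per transcript. Their gene table, named as CPM, holds a deposited signal, whole reads scaled by a single factor in each library. The value of 1 read was 1.02 in replicate 1 and 1.12 in replicate 2, and 100% of values above 0 were whole multiples within 0.01 read.

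Reads were recovered from these steps and expressed as CPM. The design had foreseen CPM. TPM were summed per gene through GENCODE 29, which matched 201667 of 251955 transcripts (94.8% of TPM), by identifier without version. Length-scaled reads are reads divided by merged exon length, scaled to the same total as TPM. Replicates were compared with edgeR 4.0.16 (binomTest, TMM, filterByExpr, Benjamini-Hochberg adjustment over all genes tested) in R 4.3.3, with DESeq2 1.42.0 size factors as an alternative. Differences are log2 of CPM + 1, a scale that understates the change of low genes. The recovery and the test were tested on simulated data. Motifs and CpG were read from RefSeq windows.

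The members and gene lists were chosen with earlier results of these data known. Named were all 46 receptor genes and, of each list of cooperating genes, the 3 highest by mean CPM and those with no read; some genes under this rule are not reported here. Of the transcripts, those leading with under 60% or differing between libraries were named, with THRA and NR1D1; other names were chosen after their values were seen. Alternatives covered the detection threshold, the scale, the filter, the pseudocount, the library scaling and each library alone. A planned search of protein sequences was not run here.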

Additional observations from a re-analysis of the deposited data

How the results depend on the processing

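No paired analysis was possible because both libraries belong to 1 group. Leaving out either replicate gave 25 to 26 detected receptor genes, 71 cooperating genes and 7 to 8 receptor genes at 10 TPM; differences between the replicates have no such value. Of the counts, 15 receptor genes reached 10 with length-scaled reads against 7 with TPM, and the cause was not tested. With all genes that have a read, 2 receptor genes differed between the libraries against 4, where more genes entered the adjustment. DESeq2 size factors and total reads gave 5 each. The leading transcript differed in 0 of 7 genes at 10 TPM and in 10 of 33 at any TPM above 0, against 3 of 20, sets that also differ in the number of genes compared. At 2-fold, 1 gene had reads far from TPM, against 0 at 4-fold. The number of detected receptor genes was 31 at 0.1 CPM, 19 at 5 CPM and 21 with summed TPM of at least 1. In retinoid handling, 13 genes were detected at 0.1 CPM and 6 at 5 CPM, against 7 at 1 CPM. In steroid synthesis, 5 were detected at 0.1 CPM and 2 at 5 CPM, against 5 at 1 CPM. The median difference of the receptor genes was -0.04 at a pseudocount of 0.1. It turned to 0.014 with summed TPM over the genes with a mean of 1 TPM or more, a set that also differs, and the cause was not tested. With 1 library left out, 50 of 50 levels moved by less than the SD, as the mean of 2 libraries must, while 19 of 25 places in the order moved with TPM. The cause was not tested for the order. NR2C1 was at place 12 in both CPM and length-scaled reads, which divide by merged exon length, and at place 5 in TPM. Its reads were 1.03 and 1.07 times those that TPM and transcript length predict, in replicates 1 and 2. Depth limits the genes with few reads, whose differences were not detectable here.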
